A study of Mus musculus with 16 samples.

Results

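Trimethylation of lysine 4 of histone H3 (H3K4me3) was mapped in hair follicle stem cells (HFSCs) at a growing and a resting point of the mouse hair cycle, and the regions described here are the H3K4me3 peaks found in every sorted population except the HFSCs of late catagen (LC-HFSCs), the population taken as quiescent. A member is a peak of the early anagen HFSC list (EA-HFSCs) that overlapped by at least 1 bp a peak of the non-EA-HFSC list and a peak of the non-LC-HFSC list and no peak of the LC-HFSC list. There were 2308 members among the 21482 EA-HFSC peaks. Members were chosen by presence and absence in these 4 lists, so neither their number nor their absence from the LC-HFSC list is a test of anything.

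Skin cells came from wild-type male CD1 x FVB mice at PD22-25 (postnatal days, early anagen, when follicles start to grow) and at PD38-44 (late catagen, when the lower follicle has regressed). Cells carrying both CD34 and α6-integrin on the surface were sorted as HFSCs of the bulge, the stem cell compartment of the follicle. Cells with α6-integrin and without CD34 were sorted as non-HFSCs, which mix the other basal cells of epidermis and follicle. Chromatin of each of the 4 populations, pooled from several mice and 2 experiments, was cut to mono-nucleosomes and precipitated for H3K4me3, H3K27me3 and H3K9me3, with IgG as background, so that 1 list per population and mark was available and no comparison has a replicate.

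H3K4me3 is placed on nucleosomes around the start of transcribed genes, most broadly over promoters rich in CpG. H3K27me3 is the mark of Polycomb repression, and promoters that carry it together with H3K4me3 are called bivalent, a state known from developmental regulators. H3K9me3 is best known from heterochromatin and silenced repeats. Peak values here are scores of the peak caller, −10 times log10 of the p-value of enrichment over IgG, which grow with sequencing depth as well as with enrichment.

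To show what the members look like, 200 bases at the middle of the 3 highest-scoring members in promoters and the 3 highest-scoring between genes are printed, leaving out windows that touch an annotated exon (mm9, plus strand, CG dinucleotides in capitals). A promoter is the stretch from 1000 bp before to 100 bp after the start of any transcript of a protein-coding gene. The promoter windows were the following.
Rarg member, chr15:102075869-102076068: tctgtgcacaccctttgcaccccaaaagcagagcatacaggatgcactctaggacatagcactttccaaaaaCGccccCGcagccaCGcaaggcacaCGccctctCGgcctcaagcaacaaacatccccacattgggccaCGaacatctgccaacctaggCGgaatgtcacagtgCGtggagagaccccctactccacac
Aff3 member, chr1:38684429-38684628: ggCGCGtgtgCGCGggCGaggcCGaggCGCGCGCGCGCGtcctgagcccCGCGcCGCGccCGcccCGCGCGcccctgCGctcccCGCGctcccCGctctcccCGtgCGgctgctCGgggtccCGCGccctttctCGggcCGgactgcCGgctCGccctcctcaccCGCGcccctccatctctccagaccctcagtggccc
Pyroxd1 member, chr6:142294697-142294896: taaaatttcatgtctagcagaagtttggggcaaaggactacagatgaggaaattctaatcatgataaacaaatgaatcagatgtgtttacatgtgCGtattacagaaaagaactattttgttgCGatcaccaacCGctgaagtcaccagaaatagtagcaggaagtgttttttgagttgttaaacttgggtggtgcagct

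The windows between genes, named by the nearest protein-coding gene, were the following.
Qk member, chr17:10528110-10528309: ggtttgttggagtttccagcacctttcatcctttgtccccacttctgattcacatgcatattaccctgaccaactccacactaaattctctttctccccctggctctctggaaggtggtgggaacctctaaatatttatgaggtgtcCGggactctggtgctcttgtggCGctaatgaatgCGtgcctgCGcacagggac
Shank2 member, chr7:151164512-151164711: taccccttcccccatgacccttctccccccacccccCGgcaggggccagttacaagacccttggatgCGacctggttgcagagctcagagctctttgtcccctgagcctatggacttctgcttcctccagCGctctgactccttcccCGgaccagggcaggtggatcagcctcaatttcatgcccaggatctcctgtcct
Ifne member, chr4:88583989-88584188: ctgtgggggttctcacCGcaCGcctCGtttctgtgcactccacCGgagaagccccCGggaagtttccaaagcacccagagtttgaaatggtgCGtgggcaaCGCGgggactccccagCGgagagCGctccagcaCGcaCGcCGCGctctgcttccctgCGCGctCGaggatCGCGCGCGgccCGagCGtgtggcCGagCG

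The Aff3 window held 35 CG dinucleotides at 82.0% G+C, whereas the Pyroxd1 window held 3 at 37.5%. Between genes, the Ifne window had 25 CG and the Qk and Shank2 windows had 4 each. The members therefore ranged from CpG islands to CpG-poor sequence, and the second kind was the more frequent. The middle 1000 bp of a member had a median ratio of observed to expected CpG of 0.41, against 0.64 for the 13529 EA-HFSC peaks that had a peak in all 3 other lists.

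In all, 7215 EA-HFSC peaks (33.6%) had no LC-HFSC peak. Of the 15837 EA-HFSC peaks with a peak in both non-HFSC lists, the 2308 members were 14.6% (95% Wilson interval 14.0 to 15.1). All intervals here are Wilson intervals and cover counting error only. When the rule was turned round, absence from 1 other list was rarer. Of 13849 LC-HFSC peaks with a peak in both non-HFSC lists, 127 (0.92%, 0.77 to 1.09) had no EA-HFSC peak. Of 14286 non-LC-HFSC peaks, 109 (0.76%) lacked the non-EA-HFSC list alone, and of 14512 non-EA-HFSC peaks, 511 (3.52%) lacked the non-LC-HFSC list alone.

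Merging the 4 lists into 27507 loci gave the same order. A peak was missing only from LC-HFSCs at 2266 loci, only from non-LC-HFSCs at 343, only from EA-HFSCs at 126 and only from non-EA-HFSCs at 79. The lists differ in length, with 14718 peaks in LC-HFSCs, 18996 in non-LC-HFSCs, 21482 in EA-HFSCs and 24498 in non-EA-HFSCs. With the 14718 highest-scoring peaks of each list, the loci missing only from LC-HFSCs fell to 503, beside 337 for EA-HFSCs, 255 for non-LC-HFSCs and 217 for non-EA-HFSCs. By the study's methods the LC-HFSC libraries held more mapped reads than the EA-HFSC libraries. How much of the remaining difference goes with enrichment of the libraries was not tested.

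**Figure D1:**
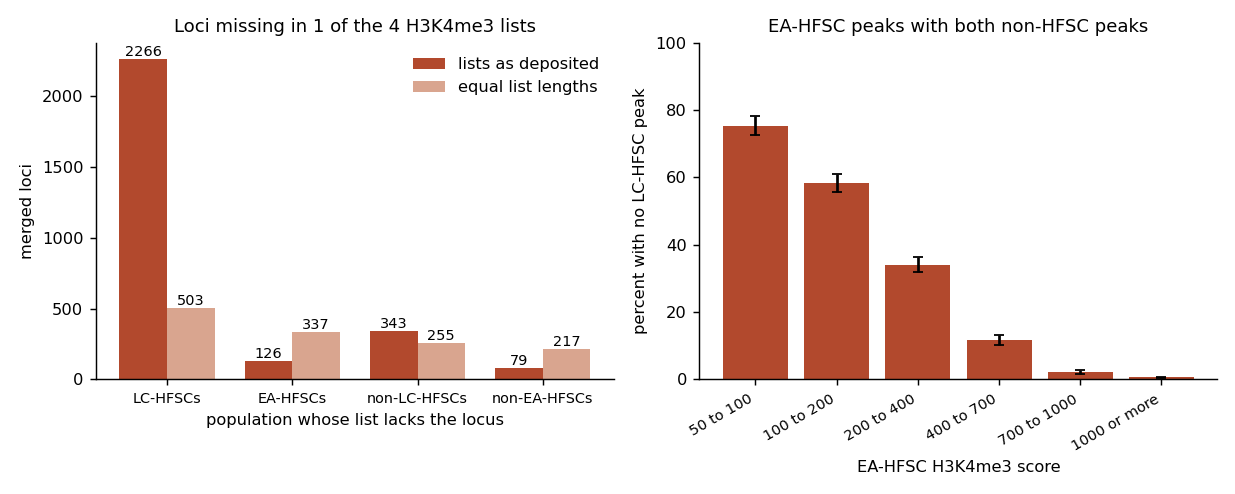
Left, merged H3K4me3 loci (count) present in 3 lists and missing in the population named on the x axis, for the lists as deposited and for equal list lengths. The LC-HFSC bars are the tallest in both, 2266 and 503. Right, percent of EA-HFSC peaks with both non-HFSC peaks that had no LC-HFSC peak, by EA-HFSC score class, with 95% Wilson intervals. The percent falls from 75.4 in the lowest class to 0.56 in the highest.

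Most members were weak peaks. Their EA-HFSC score had a median of 152 (10th to 90th percentile 65.3 to 458), against 1153 for the peaks in all 4 lists. They were weak in the other lists too, with a median score of 206 in non-EA-HFSCs and 113 in non-LC-HFSCs. The median width was 1432 bp, against 2960 bp. Of the peaks with both non-HFSC peaks, the members were 75.4% at an EA-HFSC score of 50 to 100, 34.0% at 200 to 400, 11.5% at 400 to 700, 2.08% at 700 to 1000 and 0.56% (44 of 7885) from 1000 on.

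Scores were also lower in LC-HFSCs where a peak was called. Over the 13529 shared peaks the median was 245 in LC-HFSCs, against 1153 in EA-HFSCs, 1893 in non-EA-HFSCs and 1248 in non-LC-HFSCs. Shared peaks with an EA-HFSC score of 100 to 200 had a median LC-HFSC score of 76.3, where the list begins at 50.0. Those from 1000 on had a median of 338, and 218 of 7841 of them (2.78%) were under 100 in LC-HFSCs. Weak EA-HFSC peaks thus lay near the lower end of the LC-HFSC list when they were in it.

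Once the score was held, the share of members was somewhat higher far from genes in 5 of 6 score classes, with overlapping intervals in each. At 100 to 200 it was 56.0% (50.5 to 61.4) for peaks within 3000 bp of the start of a protein-coding gene and 59.1% (56.0 to 62.1) for the others. At 200 to 400 the values were 34.1% and 33.9%, and from 1000 on they were 0.48% (0.34 to 0.67) and 1.22% (0.66 to 2.23). Members were found on every autosome, from 12.8% of eligible peaks on chromosome 7 to 19.4% (16.1 to 23.3) on chromosome 18. Chromosome X had 8.13% (5.93 to 11.05, 36 of 443), the lowest share.

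The gap from a member to the nearest LC-HFSC peak had a median of 24956 bp. For the other EA-HFSC peaks without an LC-HFSC peak the median was 28753 bp. Just inside the rule were members at Pwwp2b, Pard6g and Srrm2, with gaps of 6, 49 and 51 bp and EA-HFSC scores of 73.1, 81.2 and 81.1. Just outside it were EA-HFSC peaks near Prss48, Klrg2 and Zbed3, which overlapped an LC-HFSC peak by 21, 41 and 78 bp and scored 143, 80.7 and 87.4.

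Of the 20 members with the highest EA-HFSC score, 18 held a transcript start, against 30.1% of all members and 81.5% of shared peaks. The share of members within 3000 bp of a gene start rose with the score, from 16.6% at 50 to 100 to 77.3% from 1000 on. The highest-scoring member lay over the start of Col5a1, a chain of type V collagen (chr2:27740320-27745414). It scored 2074 in EA-HFSCs, 844 in non-EA-HFSCs and 185 in non-LC-HFSCs. No LC-HFSC peak lay within 159501 bp. The score over Col5a1 was thus highest in the early anagen HFSCs.

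Other members of the 20 scored highest in non-EA-HFSCs, as shared peaks did by median. Cdt1, which licenses origins for DNA replication, had 1611 in EA-HFSCs, 3100 in non-EA-HFSCs and 1513 in non-LC-HFSCs (chr8:125090523-125094118). Ppp2ca, the catalytic subunit of protein phosphatase 2A, had 1686, 2867 and 1668 in the same order. Mfsd2a, a transporter of lysophospholipids, had 1414, 3198 and 1079. All of these starts were high in 3 lists and without a call in LC-HFSCs.

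Rarg, the gamma receptor of retinoic acid and the form common in skin, held 2 neighbouring members. The longer one spanned 10963 bp (chr15:102079221-102090183), with its middle in an intron 3246 bp after the gene start, which it covered. It scored 1732 in EA-HFSCs, 3100 in non-EA-HFSCs and 2887 in non-LC-HFSCs. The other, whose middle is printed above, scored 1549, 1895 and 1083. The nearest LC-HFSC peak was 18750 bp from the first and 29775 bp from the second. Rarg thus lacked LC-HFSC calls along a stretch that was marked broadly in the other 3 populations.

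Further members of the 20 scored highest in EA-HFSCs and low in non-LC-HFSCs. Aff3, which encodes a nuclear protein of the AF4 family, scored 1383 in EA-HFSCs, 116 in non-EA-HFSCs and 241 in non-LC-HFSCs. Shank2, a scaffold protein of synapses, is the gene nearest to a member 23221 bp before its start, with scores of 1377, 372 and 136. Dscaml1, a cell adhesion molecule of neurons, had 1474, 552 and 88.4. In these 3 the non-LC-HFSC score was at most 241, so neither late catagen list had a strong peak there.

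The other members among the 20 lay at Smap1, Prrc2b, Cuedc1, S100a16, Slc38a4, Tgfb3, Qk, Tspan18, Zfp784 and Igf2bp3, with EA-HFSC scores of 1478 to 1819.5. The gap to an LC-HFSC peak was 1990 bp at Tgfb3, a growth factor of the TGF-beta family that kept an LC-HFSC peak within 3000 bp of its start. It was 5107 bp at Cdt1 and 7254 bp or more at the rest. Over the 20, the non-EA-HFSC score exceeded the EA-HFSC score in 10 and the non-LC-HFSC score did so in 2.

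**Figure D2:**
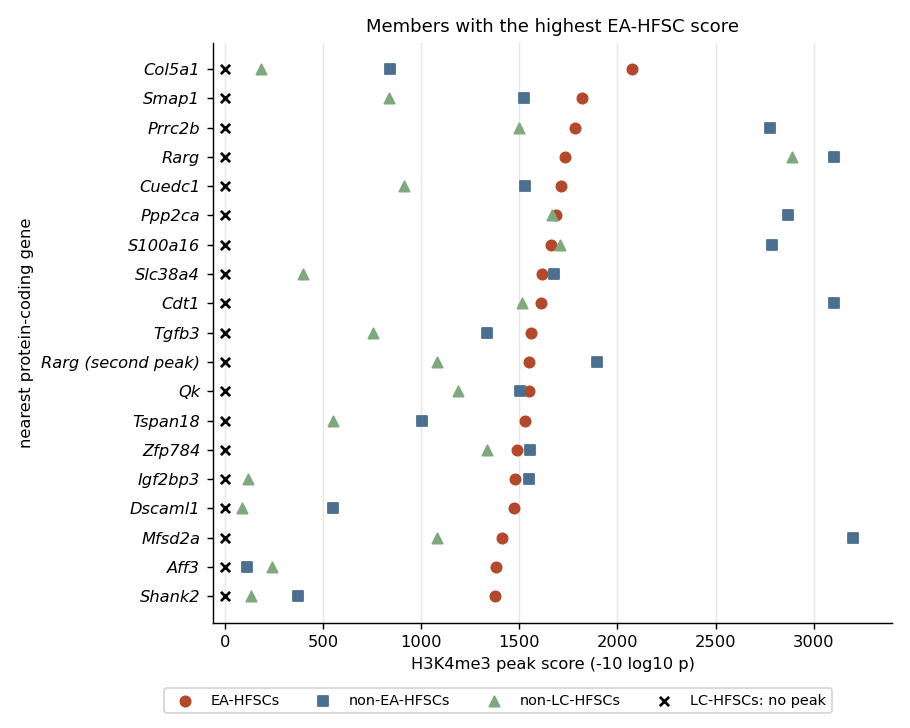
H3K4me3 peak score (x axis, −10 log10 p) of 19 of the 20 members with the highest EA-HFSC score, named by the nearest protein-coding gene, in EA-HFSCs (circles), non-EA-HFSCs (squares) and non-LC-HFSCs (triangles). Crosses at 0 mark that LC-HFSCs had no peak. Squares lie right of circles in 10 of them, and triangles range from 88.4 at Dscaml1 to 2887 at Rarg.

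Peaks strong in 3 lists without a call in the other were counted for each population, with limits chosen after the values were seen. Among merged loci whose 3 other scores were all at least 1000, 18 of 6397 (0.28%, 0.18 to 0.44) lacked LC-HFSCs. LC-HFSC scores rarely reach this limit, so 164 to 169 loci could be counted for each other population, and 0 of them lacked it. The upper limits of these shares, 2.22% to 2.29%, lie above the 0.28% of LC-HFSCs, so they do not show a lower share. With the limit at the median score of each list instead, 38 of 8835 loci (0.43%, 0.31 to 0.59) lacked LC-HFSCs, 1 of 6560 lacked EA-HFSCs, 0 of 6414 lacked non-EA-HFSCs and 0 of 6914 lacked non-LC-HFSCs. A missing call is not a missing mark, since the read signal below the caller's limit was not used here. On the level of EA-HFSC peaks, 19 members scored at least 1000 in all 3 lists, of 6411 such peaks (0.30%, 0.19 to 0.46). Besides Prrc2b, Ppp2ca, S100a16, Cdt1, Qk, Zfp784, Mfsd2a and both Rarg peaks, they lay at Alad, Ints1, Kif3a, Pyroxd1, E030030I06Rik, Mrps17, Tpx2, Brd1, Rasa3 and Arhgap19.

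Mrps17 encodes a protein of the mitochondrial ribosome and scored 1091 in EA-HFSCs, 2833 in non-EA-HFSCs and 1334 in non-LC-HFSCs. Ints1, a subunit of the Integrator complex that processes small nuclear RNA, scored 1301, 2029 and 1250. Tpx2, a spindle assembly factor, scored 1055, 1886 and 1247. Alad, an enzyme of haem synthesis, reached 1332, 3100 and 3100 over 7347 bp, and an LC-HFSC peak lay 1766 bp away. Of the 19, 18 held a transcript start, 17 (68.6% to 97.1%) overlapped an EA-HFSC H3K9me3 peak and 1 (0.94% to 24.6%) overlapped an EA-HFSC H3K27me3 peak. Of shared peaks with an EA-HFSC score from 1000 on, 89.7% lay within 3000 bp of a gene start. EA-HFSC H3K9me3 overlapped 78.2% of these shared peaks and EA-HFSC H3K27me3 3.33%, values that the intervals of the 19 hold.

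The widest members did not all score high. A member in an intron of Casz1, a zinc finger factor, was the widest at 11743 bp and scored 85.5 in EA-HFSCs, 201 in non-EA-HFSCs and 212 in non-LC-HFSCs. In Ptk7, a receptor of planar cell polarity, a member of 6636 bp scored 162, 514 and 286, and an LC-HFSC peak ended 324 bp away. The Rarg, Alad and Prrc2b members made up the rest of the 5 widest.

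Position in the genome set the members apart from shared peaks as groups. The middle of 40.1% of members (38.1 to 42.1) lay between genes, against 13.1% of shared peaks, and 15.7% (14.3 to 17.2) lay in a promoter, against 31.6%. Introns held 32.6% and 41.7%. Of the other 4907 EA-HFSC peaks without an LC-HFSC peak, 40.7% lay between genes and 10.2% in a promoter. A position between genes was thus not particular to members. A transcript start lay inside 30.1% of members and 81.5% of shared peaks. The median distance from the middle to the nearest protein-coding gene start was 13421 bp and 635 bp. Noncoding transcripts started within 1000 bp of 7.496% of members and 11.2% of shared peaks.

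Those differences went with the score. Within 3000 bp of a gene start lay 22.9% of members and 25.2% of shared peaks at an EA-HFSC score of 100 to 200, and 36.6% and 36.4% at 200 to 400, with overlapping intervals. From 1000 on the values were 77.3% (63.0 to 87.2) and 89.7% (89.0 to 90.3). CpG-rich middles, with a CpG ratio of at least 0.6 and at least 50% G+C, were 20.9% of members and 52.7% of shared peaks in all. At 200 to 400, however, 29.5% (25.9 to 33.5) of members and 22.6% (20.2 to 25.2) of shared peaks were CpG-rich, so at equal EA-HFSC score the members were the richer group there.

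**Figure D3:**
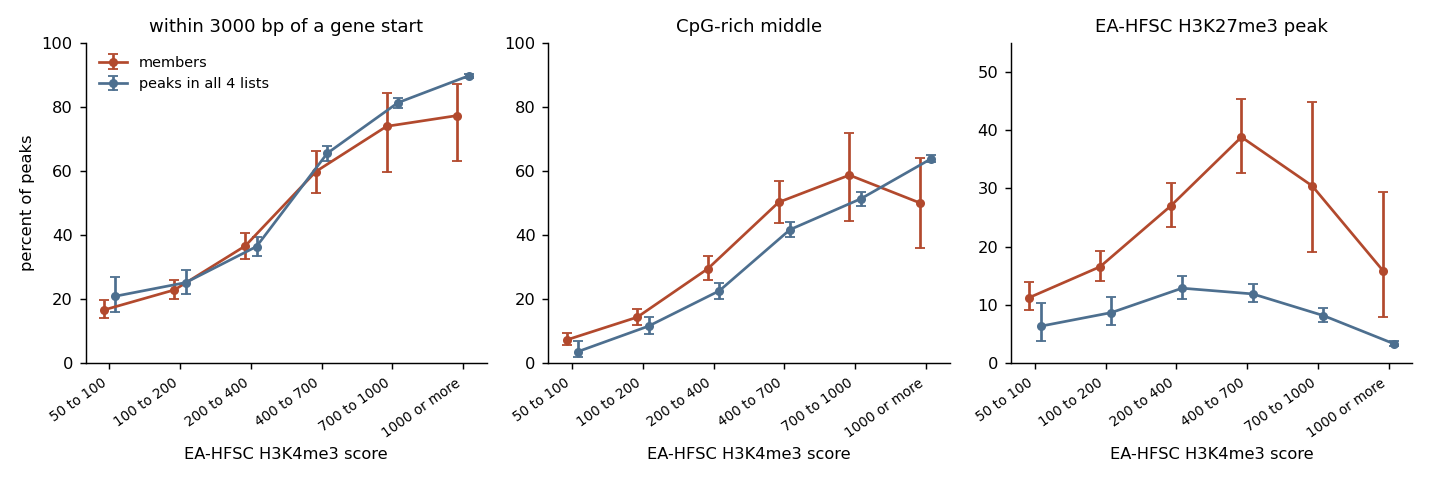
Percent of members and of EA-HFSC peaks in all 4 lists that lay within 3000 bp of a gene start, had a CpG-rich middle or overlapped an EA-HFSC H3K27me3 peak (y axes), by EA-HFSC H3K4me3 score class (x axes), with 95% Wilson intervals. The first panel's groups run close together up to 700, while H3K27me3 overlap is higher for members in every class, for example 38.8% against 11.9% at 400 to 700.

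The rule used no other mark, and in H3K27me3 the members differed from shared peaks. An EA-HFSC H3K27me3 peak overlapped 459 members (19.9%, 18.3 to 21.6) and 6.19% (5.80 to 6.61) of shared peaks. In non-EA-HFSCs the values were 24.3% and 10.2%, and in non-LC-HFSCs 19.2% and 7.04%. In LC-HFSCs they were 5.50% (4.64 to 6.51) and 1.55%. The LC-HFSC H3K27me3 list held 1909 peaks, against 15273 to 25534 in the other 3. The other 4907 EA-HFSC peaks without an LC-HFSC peak had an EA-HFSC H3K27me3 share of 16.2% (15.2 to 17.3), so overlap with this mark was not limited to members.

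The difference held at equal EA-HFSC score. At an EA-HFSC score of 200 to 400, H3K27me3 of EA-HFSCs overlapped 26.99% (23.5 to 30.8) of members and 12.9% (11.01 to 15.0) of shared peaks. At 400 to 700 it overlapped 38.8% (32.6 to 45.4) and 11.9% (10.4 to 13.5). Scores in the other lists were not held. In this class the members had a median of 443 in non-EA-HFSCs and 211 in non-LC-HFSCs, against 875 and 528 for shared peaks. In the lowest class, 50 to 100, the values were 11.3% (9.10 to 13.9) and 6.36% (3.83 to 10.4), whose intervals overlapped.

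Without the score held, the H3K27me3 difference was larger at gene starts than farther away. Of the 690 members within 3000 bp of a gene start, 41.6% (37.97 to 45.3) carried EA-HFSC H3K27me3, against 6.24% (5.79 to 6.72) of shared peaks there. Of the 1618 members farther away, 10.6% did, against 6.04%. The share of shared peaks with this mark fell with the score, from 12.9% at 200 to 400 to 3.33% from 1000 on. The size of the difference at gene starts at equal score was not tested. Of members with H3K27me3 in EA-HFSCs, 27.2% (23.4 to 31.5) had it in LC-HFSCs, a share like the 24.2% (21.4 to 27.2) of shared peaks. Of the members at gene starts, 11.9% (9.68 to 14.5) had H3K27me3 in LC-HFSCs, so this mark too was called at fewer of them in that population.

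H3K27me3 of all 4 populations overlapped 123 members (5.33%, 4.48 to 6.32), against 1.43% of shared peaks. The 5 with the highest H3K27me3 score in EA-HFSCs, all at 3100, lay at Alx1, Lhx1, Pou4f1, Six2 and Onecut2, each a factor with a homeodomain. At Six2, known from kidney progenitors, the H3K27me3 score was 3100 in EA-HFSCs, 55.4 in LC-HFSCs, 3202 in non-EA-HFSCs and 1203 in non-LC-HFSCs, beside H3K4me3 scores of 704 in EA-HFSCs, 171 in non-EA-HFSCs and 107 in non-LC-HFSCs. At Alx1, a factor of craniofacial development, the H3K27me3 score was 339 in LC-HFSCs and 2566 to 3100 in the others. The LC-HFSC list had the lowest H3K27me3 score at all 5 loci. Its highest score anywhere was 568, and the 5 were picked by EA-HFSC score, so it could not have exceeded EA-HFSCs there.

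**Figure D4:**
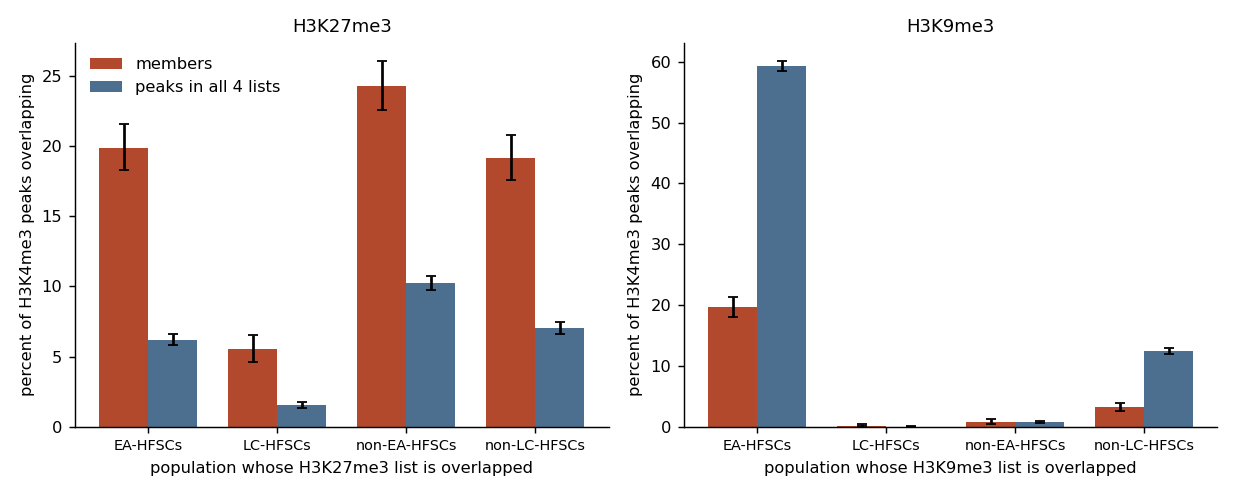
Percent of members and of EA-HFSC peaks in all 4 lists that overlapped an H3K27me3 peak (left) or H3K9me3 peak (right) of the population on the x axis, with 95% Wilson intervals. Members exceed shared peaks for H3K27me3 in all 4 populations, and are below them for H3K9me3 in EA-HFSCs, 19.6% against 59.3%, without regard to the H3K4me3 score.

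Over the whole groups, H3K9me3 went the other way. EA-HFSC H3K9me3 peaks overlapped 453 members (19.6%, 18.1 to 21.3) and 59.3% (58.5 to 60.1) of shared peaks. In non-LC-HFSCs the values were 3.16% and 12.4%, and in non-EA-HFSCs 0.78% and 0.75%. The EA-HFSC list of this mark was the longest of the series, with 42277 peaks, and LC-HFSCs had 1414. Overlap with it rose with the H3K4me3 score, from 10.4% of members at 50 to 100 to 68.2% from 1000 on, against 8.64% and 78.2% of shared peaks. From 100 to 700, however, the members had the higher share, 14.4% (12.1 to 17.0) against 7.97% (5.99 to 10.5) at 100 to 200, 24.1% (20.7 to 27.8) against 15.7% (13.6 to 17.99) at 200 to 400 and 38.8% (32.6 to 45.4) against 30.8% (28.6 to 33.0) at 400 to 700. At 700 to 1000 the values were 52.2% and 52.8%. The lower share over all members thus went with their lower H3K4me3 scores. The EA-HFSC H3K9me3 peaks on members had a median score of 92.2, near the lower end of their list at 40.0.

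The 3 members with an H3K9me3 peak in LC-HFSCs lay together in the gamma protocadherin cluster, whose genes encode cadherin-like surface proteins read from many alternative first exons. Their LC-HFSC H3K9me3 scores were 97.6, 240 and 46.8. In non-EA-HFSCs the scores at the same members were 703, 453 and 1627. The same cluster was the 100-kb window with the most members, 6 between 37814850 and 37912137 on chromosome 18, with EA-HFSC H3K4me3 scores of 57.7 to 258. An LC-HFSC H3K4me3 peak lay between them. Over all members, those of this window included, 7.37% had another member within 10000 bp and 35.2% within 100000 bp.

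Short sequence elements were counted on both strands in the middle 500 bp, as a description of sequence and not of binding. The GC box GGGCGG was in 40.8% of members, 54.0% of shared peaks and 46.3% of all EA-HFSC peaks. Within 3000 bp of a gene start it was in 58.3% (54.5 to 61.9) of members and 57.3% (56.3 to 58.2) of shared peaks. The RUNX element TGTGGT, 25.3% against 20.8%, and the GATA element AGATAA, 16.3% against 12.7%, were more frequent in members over the whole groups. The CCAAT box was in 42.4% and 39.0%, the E-box CACGTG in 10.2% and 10.3%, the cyclic AMP response element in 1.13% and 1.54%, the ETS element in 1.82% and 3.68%, and the NRF1 element in 2.39% and 3.96%. In the other EA-HFSC peaks without an LC-HFSC peak, the RUNX element was in 26.8% and the GATA element in 19.3%. A higher frequency of these elements than in shared peaks was thus not particular to members.

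The AP-1 element TGANTCA was found in 14.5% of members (13.1 to 16.0), 8.43% of shared peaks and 10.8% of all EA-HFSC peaks. At an EA-HFSC score of 100 to 200 it was in 15.7% (13.3 to 18.4) of members and 18.7% (15.6 to 22.1) of shared peaks, so the difference was not seen at equal EA-HFSC score. The highest-scoring member between genes with this element in the printed window, after the Qk member shown above, lay 5760 bp before Sertad1, and the element is in capitals.
Sertad1 member, chr7:28266069-28266268: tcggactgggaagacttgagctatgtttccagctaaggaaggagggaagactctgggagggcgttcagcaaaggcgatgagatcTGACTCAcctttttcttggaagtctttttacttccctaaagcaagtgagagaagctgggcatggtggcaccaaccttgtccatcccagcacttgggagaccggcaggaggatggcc

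On the level of genes, 747 of 22367 protein-coding genes had a member within 3000 bp of the start, and 117 of these kept an LC-HFSC peak there. That left 630 genes with a member and no LC-HFSC peak at the start. The number depended on the lists, with 240 at equal list lengths, 374 when the 3 other lists began at a score of 100 and 1178 when all 4 did. Of the 12470 genes whose start had a peak in the 3 lists other than LC-HFSCs, 619 (4.96%, 4.60 to 5.36) were of this kind, and lists of genes are read against that share. The H3K4me3 score was not held in this share or in those of the lists below. The share of members among eligible peaks fell from 75.4% at a score of 50 to 100 to 0.56% from 1000 on. How far the differences between lists go with the score was not tested. Of the 630, 33 (5.24%) had an LC-HFSC peak at the start of another transcript of the gene. H3K27me3 of EA-HFSCs lay at the start of 304 of them (48.3%, 44.4 to 52.2), against 7.58% (7.12 to 8.07) of genes with all 4 H3K4me3 peaks, again without the score held.

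Of the bulge markers, Cd34, the surface marker of the sort, separated the fractions, since it had an H3K4me3 peak at the start in both HFSC lists and in neither non-HFSC list. All 8 bulge markers (Cd34, Krt15, Lgr5, Sox9, Lhx2, Nfatc1, Tcf7l1 and Tbx1) were marked in the HFSCs of both stages, 7 were marked in non-EA-HFSCs and 6 in non-LC-HFSCs, which lacked a peak at Lhx2 too. No member lay at any of them. Of the skin epithelium markers, Krt5 and Krt14 had a peak in all 4 lists, while Itga6, which encodes the α6-integrin of the sort, and Trp63 had none at the annotated start and a peak of all 4 lists within the gene. Among 6 leukocyte markers, EA-HFSCs had a peak at 2 and LC-HFSCs at 1, with Ptprc, Cd3e, Cd207 and Csf1r in no list. The endothelial markers had 2 and 1 of 6, the dermal fibroblast markers 4 and 3 of 7, the melanocyte markers 2 and 2 of 6 and the Merkel cell markers 2 and 1 of 4. A member lay at 2 markers, Twist2 and Isl1. In a bulk precipitate, fewer cells of a type and less of the mark per cell cannot be told apart.

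None of the 28 bulge stem cell genes with the 3 other peaks lacked an LC-HFSC peak at the start through a member, which allows a share of up to 10.7% (3 counts of the total). The same 0 was found for 21 cyclin-dependent kinase inhibitors and tumour suppressors (up to 14.3%), 42 histone methylation enzymes (up to 7.14%), 28 immediate early and AP-1 genes (up to 10.7%) and 24 integrins and laminins (up to 12.5%). Of 50 cell cycle and replication genes, Cdt1 was the only one (2.00%, 0.35 to 10.5). Each of these limits lies above the 4.96% of all genes, so lists of this size do not show a lower share. Members beside a kept LC-HFSC peak were found near Id3, an inhibitor of basic helix-loop-helix factors, and Lgr6, a stem cell receptor of the Lgr5 family. The Lgr6 member scored 95.5 in EA-HFSCs, 3100 in non-EA-HFSCs and 52.4 in non-LC-HFSCs, 138 bp from an LC-HFSC peak.

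Of the signalling lists, Wnt and FGF genes had a higher share than all genes, BMP and TGF-beta genes a similar one and Hedgehog and Notch genes a lower one, and the interval lay above 4.96% for Wnt genes alone. In the Wnt list 6 of 54 (11.1%, 5.19 to 22.2) lacked the LC-HFSC peak, namely the ligands Wnt2, Wnt9a and Wnt10b and the inhibitors Dact2, Notum and Sfrp2. At Wnt2 the H3K4me3 score was 276 in EA-HFSCs, 1380.3 in non-EA-HFSCs and 542 in non-LC-HFSCs, and H3K27me3 was called in all 3 of these populations and not in LC-HFSCs. Notum, an extracellular enzyme that inactivates Wnt proteins, had 219, 244 and 75.6. Wnt9a had 753, 384 and 311.

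In the BMP and TGF-beta list 3 of 55 (5.45%, 1.87 to 14.9) were of this kind. They were the receptor Bmpr1b, which scored 558 in EA-HFSCs, 1544 in non-EA-HFSCs and 548 in non-LC-HFSCs, and in the same order the ligand Bmp3, with 218, 3100 and 1737, and the ligand Bmp8b, with 121, 215 and 112. Among FGF genes there were 2 of 20 (10%, 2.79 to 30.1). Fgf5, whose product ends anagen, had 197, 295 and 82.1, and Fgf8 had 105, 101 and 85.2. Both carried H3K27me3 in all 4 populations. The Hedgehog and Notch list had 1 of 31 (3.23%, 0.57 to 16.2). A member at Hes5, a target of Notch, lay 590 bp from an LC-HFSC peak and is not counted there.

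Of the lists made by gene function with at least 20 such genes, ion channel and matrix genes had the highest shares. Of 48 collagen and matrix genes, 8 (16.7%, 8.70 to 29.6) had a member and no LC-HFSC peak, Col2a1, Col5a1, Col11a2, Col13a1, Col27a1, Adamts14, Adamts18 and Thbs2. Col2a1, the collagen of cartilage, scored 903 in EA-HFSCs, 260 in non-EA-HFSCs and 101 in non-LC-HFSCs, and its H3K27me3 score was 1334, 2706 and 2048 in the same order and 283 in LC-HFSCs. Adamts14, a protease that trims procollagen, scored 340, 2087 and 713. Of 29 ion channel genes, 7 (24.1%, 12.2 to 42.1) were of this kind, 5 of them potassium channels. Kcnq5 scored 529 in EA-HFSCs, 77.5 in non-EA-HFSCs and 58 in non-LC-HFSCs, and Kcnj12 scored 373, 366 and 119.

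Without the score held, transcription factors of development were above the share of all genes too. Of 57 homeobox genes, 7 (12.3%, 6.08 to 23.3) lacked the LC-HFSC peak, Emx1, Hoxc9, Lhx1, Lhx6, Nkx6-1, Pax2 and Six2. Pax2, a factor of kidney and eye, scored 446 in EA-HFSCs, 518 in non-EA-HFSCs and 136 in non-LC-HFSCs. Among 40 Sox, Fox, Gata and Tbx genes there were 4 (10%, 3.96 to 23.1), Foxa1, Foxc2, Foxd2 and Tbx5, with an interval that holds 4.96%. Foxf2 had a member with its LC-HFSC peak 1100 bp away.

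Keratin and epidermal differentiation genes had 2 of 28 (7.14%, 1.98 to 22.6). Krt17, a keratin of the follicle's outer root sheath and of activated keratinocytes, had a member of 5700 bp scoring 984 in EA-HFSCs, 1526 in non-EA-HFSCs and 434 in non-LC-HFSCs. Dsg1b, a desmosomal cadherin of upper epidermal layers, scored 238, 1114 and 439. Of 51 axon guidance and cell contact genes, Sema7a was the only one, with 351, 344 and 106. Marker lists of other cell types had few genes with the 3 other peaks. They added Flt4 of 6 endothelial genes (16.7%, 3.01 to 56.4), Ly6a and Twist2 of 7 dermal fibroblast genes (28.6%, 8.22 to 64.1) and Isl1 and Syt1 of 9 Merkel cell and neural genes (22.2%, 6.32 to 54.7), and none of 5 leukocyte and 3 melanocyte genes. At Ly6a the scores were 103 in EA-HFSCs, 1635 in non-EA-HFSCs and 906 in non-LC-HFSCs.

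Lists of gene symbols given with the study differed widely. Of 174 genes that the study lists as higher in the bulge, Mgat4a, a glycosyltransferase, was the only one with a member and no LC-HFSC peak at the start (0.57%, 0.10 to 3.18). Of 80 genes listed as lower in the bulge, 10 (12.5%, 6.93 to 21.5) were of this kind. Rasa3, a Ras GTPase-activating protein, scored 1013 in EA-HFSCs, 2993 in non-EA-HFSCs and 1684 in non-LC-HFSCs, Il20ra, a cytokine receptor, 426, 3120.0 and 1584, and Pkib, an inhibitor of protein kinase A, 167, 1868 and 939. All 3 scored highest in non-EA-HFSCs, which also had the highest median over shared peaks, so this order was not particular to them.

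Of 400 genes listed as constantly expressed there were 4 (1.00%, 0.39 to 2.54), Ppp2ca, Fancg, Trim44 and Osbpl5. Fancg, of the Fanconi anaemia DNA repair complex, scored 744, 3137 and 1707. Of 72 genes listed as not expressed in the lineage, 15 (20.8%, 13.1 to 31.6) were of this kind, among them Dact2, Ank1, Fgf8 and 1500009L16Rik. Ank1, the ankyrin of red blood cells, scored 432 in EA-HFSCs, 154 in non-EA-HFSCs and 67.6 in non-LC-HFSCs, and carried H3K27me3 in these 3 populations. Grouped by the start of the symbol, 8 of 30 Kcn genes, 6 of 25 Col genes and 4 of 17 Adamts genes were of this kind, beside 12 of 214 Slc, 7 of 300 Zfp, 7 of 159 Tmem, 4 of 68 Rab, 4 of 39 Gpr, 1 of 40 Arhg, 1 of 12 Sema, 1 of 2 Olfr and 0 of 8 Pcdh genes.

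**Figure D5:**
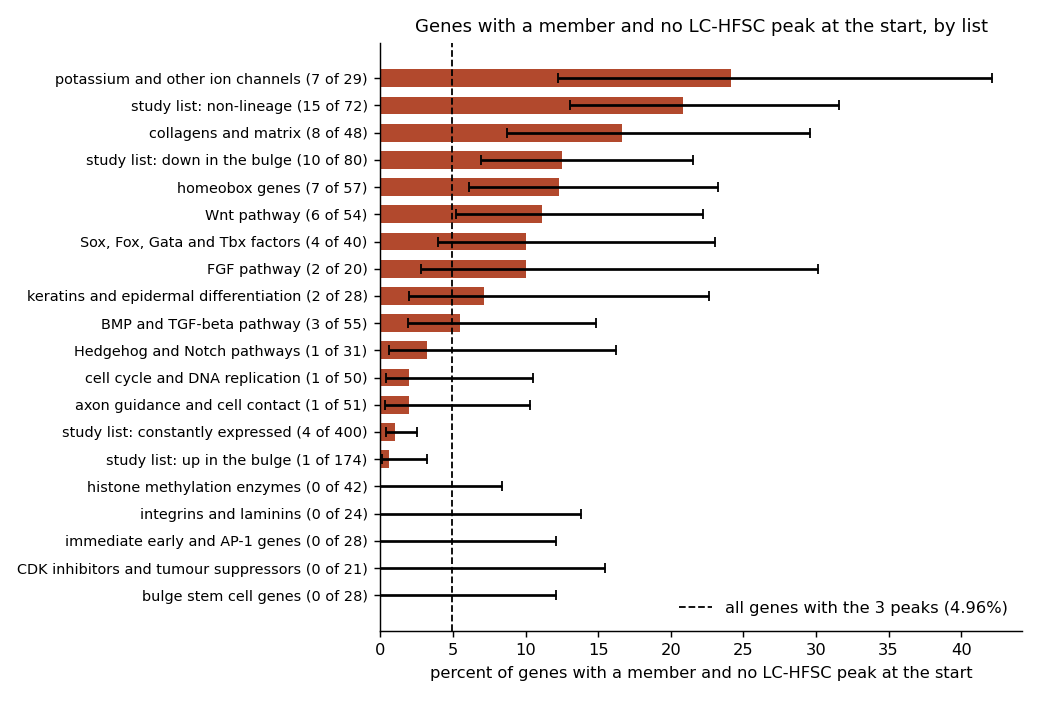
Percent of the genes of each list with peaks of all 3 other populations at the start that had a member and no LC-HFSC peak there (x axis), for lists with at least 20 such genes, with 95% Wilson intervals and counts in brackets. The dashed line is the share of all genes, 4.96%, and the H3K4me3 score was not held. Ion channels (24.1%) and genes listed as not expressed in the lineage (20.8%) lie highest, and the bulge stem cell genes are at 0.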

How the data were processed

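Peak lists for H3K4me3, H3K27me3 and H3K9me3 in 4 sorted mouse populations were analysed (12 lists). IgG precipitates (4 samples) were the background and enter here through the scores only. Per the study's methods, the authors trimmed single-end reads with Trimmomatic 0.22, aligned them to mm9 with Bowtie2, pooled replicate experiments and ran MACS with the IgG of each population as its control. The deposited score in column 5 is −10 log10 of the peak's p-value, with a lowest score of 50.0 for H3K4me3 and 40.0 for the other marks. Read counts per list were not used here. The study gives depth as ranges of mapped reads, higher for LC-HFSCs than for EA-HFSCs. Pooling leaves no replicate, so no test was made.

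Overlaps from 1 bp, distances and shares were computed in Python 3.11.15 with numpy 2.4.6 and pandas 2.3.3, and sequence was read with pysam 0.24.0 from NCBIM37, the same assembly as mm9, with GENCODE vM1 genes. The member rule was tested on simulated peaks, and bedtools 2.31.1 gave the same 2308 members. 4 members on unplaced sequence have no gene or base composition. A gene's start is the first base of its gene record, so alternative starts can lie elsewhere, and genes that share a window share its peaks. Older symbols were matched through RefSeq synonyms. Lists are described by counts beside the share of all genes, with 95% Wilson intervals.

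The members and the gene lists were chosen with earlier results of these data known. Named members are the 20 with the highest EA-HFSC score, the 5 widest, up to 4 per gene list by EA-HFSC score, the 3 nearest to the rule's limit on either side, the 5 with H3K27me3 in all populations and the highest EA-HFSC score of that mark, those with LC-HFSC H3K9me3, and the densest 100-kb window. Members with scores of at least 1000 in 3 lists were added after the values were seen. Some genes are not reported here. Alternatives changed the score limit, list length, overlap, allowed gap and chromosomes.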

Additional observations from a re-analysis of the deposited data

Results flagged for a closer look

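The share of members with an H3K9me3 peak moved in opposite directions between early anagen and late catagen in the sorted fractions. In HFSCs it fell by 19.5 percentage points, from 19.6% to 0.13%, and in non-HFSCs it was higher by 2.38 points, from 0.78% to 3.16%. Over all EA-HFSC H3K4me3 peaks the share went from 42.7% to 0.06% in HFSCs and from 0.74% to 8.77% in non-HFSCs. The opposite directions were thus not particular to members. With 1 list per population the difference between these changes was not tested. The H3K9me3 lists held 42277 peaks in EA-HFSCs, 1414 in LC-HFSCs, 17873 in non-EA-HFSCs and 18236 in non-LC-HFSCs.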

How the results depend on the processing

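With equal list lengths the members numbered 510, or 4.01% of eligible peaks, and 240 genes had a member and no LC-HFSC peak at the start. When the 3 other lists were limited to scores from 100 on and the whole LC-HFSC list was kept, the values were 1005, 7.26% and 374. When all 4 lists were limited in this way, members were 18.4% of eligible peaks and the genes numbered 1178. Where an overlap had to cover 50% of the EA-HFSC peak, the percent was 13.5. Promoter shares were 24.7%, 19.6% and 21.3% under the first 3 settings, and H3K9me3 shares 33.7%, 26.1% and 29.7%. The H3K27me3 share was 25.3% with equal lengths, 22.6% with stricter partner lists and 16.7% with the larger overlap. Loci missing only from EA-HFSCs were 337, 198 and 43 under the first 3 settings. Those missing only from LC-HFSCs were 503 with equal lengths and 991 with stricter partner lists. Those missing only from non-EA-HFSCs were 217 with equal lengths and 14 with the limit in every list, and those missing only from non-LC-HFSCs 165 with that limit and 561 with stricter partner lists. Loci missing only from LC-HFSCs were the most frequent of the 4 kinds in each of these settings. In every setting members had the higher H3K27me3 share and the lower H3K9me3 and promoter shares than shared peaks over the whole groups, and none of these settings held the score. Of the 20 members with the highest score, 14 to 20 still met the rule. The other 35 values stayed within 1.5 times the reported count or within the interval of the reported share. The overlap limit gives no value for merged loci. No paired analysis was possible because each population has 1 pooled list per mark. Scores depend on depth, which the study gives as ranges that were not used here.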
